A study of Mus musculus with 4 samples.

Results

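The RNAs described here are the non-coding RefSeq transcripts that were detected in each of 4 cell fractions sorted from mouse bone marrow. A member is a transcript whose array probe carries a RefSeq accession for non-coding RNA and was called well above background on most of its spots on every array, with the brightest probe standing for a gene symbol. Of 692 non-coding symbols on the array, 198 met this rule, and 2 further genes are not reported here. The members were thus chosen by their signal over background in these 4 arrays, so their presence in every fraction is not a result, and transcripts that disappear from a fraction cannot be among them. The best probe was detected in 3 fractions for 30 further symbols, in 2 for 35, in 1 for 57 and in none for 372.

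The fractions came from 8-week-old female C57BL6 mice, with no genetic change or treatment given in the labels, and each was hybridised to 1 single-colour Agilent array. The long-term stem cell fraction (LT-HSC) was c-Kit+, Sca-1+ and lineage-negative and lacked CD34. The short-term one (ST-HSC) carried CD34 in addition, progenitors were c-Kit+ and lineage-negative, and Lin+ cells carried lineage markers. The sorting protocol in the labels calls progenitors Sca-1-negative and also mentions lineage-positive cells for them, so the exact gate is uncertain. With 1 array per fraction there is no spread between samples, no difference has a test, and the number of mice behind each array is not given in the labels.

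Non-coding RNAs are of several kinds. Small structural RNAs build the ribosome, the spliceosome and the enzymes that process them. Small nucleolar RNAs (snoRNAs) guide the modification of ribosomal RNA and are mostly cut from the introns of host genes, some of which make no protein and are known only by the spliced RNA that remains. Long non-coding RNAs (lncRNAs) include scaffolds of nuclear bodies, regulators of imprinted domains and of the X chromosome, and primary transcripts of microRNAs. Transcribed pseudogenes are copies of other genes that are still read into RNA.

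By the RefSeq annotation, the 198 members comprised 120 lncRNA genes, 65 transcribed pseudogenes, 9 structural RNAs and 4 genes that also make a protein and were measured here by a non-coding transcript. Another 25 non-coding accessions were detected in every fraction and have no symbol in the annotation table used here, and they are not counted among the members.

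Among the lncRNA genes, 11 were on the list of snoRNA hosts used. Each of these was lowest in Lin+ cells (10 of 11 with arrays scaled to spike-in controls). Members off the list that hold an annotated snoRNA gene are given further below. The RNAs of many such hosts begin with a pyrimidine tract like that of ribosomal protein mRNAs (a terminal oligopyrimidine start, or TOP), so the bases around the annotated starts of 6 of them are shown, as examples with runs of different length and Snhg3 with none. Each line below gives 10 bases before the start and 30 from it, from RefSeq windows of assembly GRCm38.p6, and capitals mark the unbroken run of C and T from the start base where it begins there.
Snhg7, chr2:26640215-26640254, minus strand: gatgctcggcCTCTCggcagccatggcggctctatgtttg
1110038B12Rik, chr17:34952439-34952478, minus strand: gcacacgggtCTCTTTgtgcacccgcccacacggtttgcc
2410006H16Rik, chr11:62602867-62602906, plus strand: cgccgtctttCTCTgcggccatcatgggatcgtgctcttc
Snhg1, chr19:8723477-8723516, plus strand: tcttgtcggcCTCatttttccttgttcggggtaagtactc
Snhg12, chr4:132308668-132308707, plus strand: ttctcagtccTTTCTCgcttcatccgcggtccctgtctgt
Snhg3, chr4:132353657-132353696, minus strand: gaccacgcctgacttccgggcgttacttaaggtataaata
The motif searched was a C at the start base followed by at least 4 bases that are C or T, on the transcript's strand. It was present at an annotated start of 2 of the 10 host genes with a window, Snhg7 and 1110038B12Rik. 1110038B12Rik has a further annotated start just upstream without the motif. The same letters stood at a start of 6 of 100 members with a window, 14 of 60 ribosomal protein gene symbols (23.3%) and 813 of 27025 genes of the table (3.01%). A match depends on the exact base annotated as the start, and no match says only that these letters are not there.

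Levels are given as the log2 of the processed signal minus that of the array's 75th percentile over all probes, so 0 is the level of that percentile. In intensity units that percentile was 192 (LT-HSC), 217 (ST-HSC), 137 (progenitors) and 230 (Lin+ cells), and 40.9% to 45.9% of probes were detected. A difference is the first named fraction minus the other on this scale, and ± is the spot error estimated by the scanner software, which does not cover the spread between mice. The median error was 0.15 for a member's level and 0.21 for a difference. The lowest level of a member was -2.61 (LT-HSC), -3.13 (ST-HSC), -2.55 (progenitors) and -3.37 (Lin+ cells), and errors were largest near the detection limit. A member is counted as higher or lower where it differed by at least 2-fold, which is 1 on the log2 scale. The same counts over 10436 coding genes detected in every fraction by the same rule serve as background.

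The RNAs of the sorting markers followed the labels only in part. Cd34 had 7.34 (LT-HSC), 8.53 (ST-HSC), 7.51 (progenitors) and 3.26 (Lin+ cells), so its RNA was high in the fraction sorted as lacking CD34. Ly6a, which encodes Sca-1, had 4.52, 3.12, 2.28 and 4.51, as high in Lin+ cells as in LT-HSC. Kit had 5.63, 5.0, 4.42 and 1.67, lowest in Lin+ cells. Of 6 long-term stem cell genes on the list used, LT-HSC had 6 detected, ST-HSC 3, progenitors 4 and Lin+ cells 2. The summed level of 4 neutrophil genes was 1.39 (LT-HSC), 1.12 (ST-HSC), 6.40 (progenitors) and 12.15 (Lin+ cells). That of 3 erythroblast genes was -0.93, -1.37, 5.14 and 12.11 in the same order. That of 4 T and NK cell genes was 5.35, 6.23, 7.46 and 7.13, carried mostly by Nkg7 with 5.20, 6.15, 7.39 and 6.35. Of the other T and NK cell genes, Cd3d and Cd2 were detected only in Lin+ cells and Cd3e in every fraction. Of the B cell receptor subunits, Cd79a was detected only in Lin+ cells, while Cd79b was detected in every fraction, with 4.08, 4.21, 4.33 and 7.20. Summed levels of 6 stromal and 4 endothelial genes were 4.47 to 5.48 and 5.17 to 6.1 over the fractions, each carried by 1 gene, Lepr and Kdr. Other genes of those lists moved more, such as Emcn with 0.29, -0.46, -3.78 and -5.66. The summed level of 5 myeloid and erythroid progenitor genes was 7.18, 10.15, 11.82 and 10.45. Mpo and Elane were higher in ST-HSC than in LT-HSC (10.12 beside 6.70, and 4.12 beside 1.16). Klf1, Car1 and Gata1 were lower there (-2.55 beside 0.29, -2.54 beside 3.09, and 2.69 beside 4.83). Cell type genes therefore moved in every comparison, that of the 2 stem cell fractions included. The part of the mixture of cells in the results below was not tested. In such mixtures, fewer cells of a type and less RNA per cell cannot be told apart.

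Differences of 2-fold were fewest between the stem cell fractions, for non-coding transcripts and coding genes alike. In Lin+ cells they were more often lower than higher for both with this scaling, though not for coding genes with every scaling. In ST-HSC against LT-HSC, 8 members were higher and 8 lower, which is 8.08% of members where 9.69% of coding genes differed (4.9% higher, 4.79% lower). In progenitors against ST-HSC, 20 were higher and 14 lower (17.2% of members, with a background of 16%, made of 7.45% higher and 8.55% lower). In Lin+ cells against progenitors, 9 were higher and 71 lower (40.4%, background 38%, of which 10.8% higher and 27.2% lower). In Lin+ cells against LT-HSC, 11 were higher and 66 lower (38.9%, background 33.7%, of which 12.9% higher and 20.8% lower). The progenitor, ST-HSC, LT-HSC and Lin+ arrays each enter more than 1 of these comparisons, so the counts are not independent.

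The share of members past 2-fold was thus close to that of coding genes in each comparison, while the split between directions leaned lower in Lin+ cells. The median difference of members was -0.02 in ST-HSC against LT-HSC, where that of coding genes was 0.05. It was 0.21 in progenitors against ST-HSC beside 0.20 for coding genes, -0.81 in Lin+ cells against progenitors beside -0.44, and -0.55 in Lin+ cells against LT-HSC beside -0.21. These splits depend on how arrays are scaled. With arrays scaled to spike-in controls, the Lin+ against progenitor split was 25 higher and 34 lower, and the Lin+ against LT-HSC split 22 and 52. With the percentile taken over probes detected on all arrays the Lin+ against progenitor split was 16 and 46, and with the coding median set to 0 it was 18 and 41. Coding genes leaned higher there, with 1766 higher and 1523 lower, and 1880 and 1409. With spike-in controls their splits were 2274 higher and 1042 lower against progenitors, and 1894 and 1515 against LT-HSC.

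The 2 other splits were less stable. Progenitors against ST-HSC gave 10 higher and 20 lower with the detected-probe percentile, 13 and 14 with the median of all probes, 12 and 15 with the coding median set to 0, 5 and 42 with spike-in controls, and 9 and 3 after normexp background correction. ST-HSC against LT-HSC gave 5 and 8 with the detected-probe percentile and with the coding median set to 0, 20 and 1 with spike-in controls, and 5 and 0 after normexp. In every setting run, more members were lower than higher in Lin+ cells against progenitors and against LT-HSC.

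**Figure D1:**
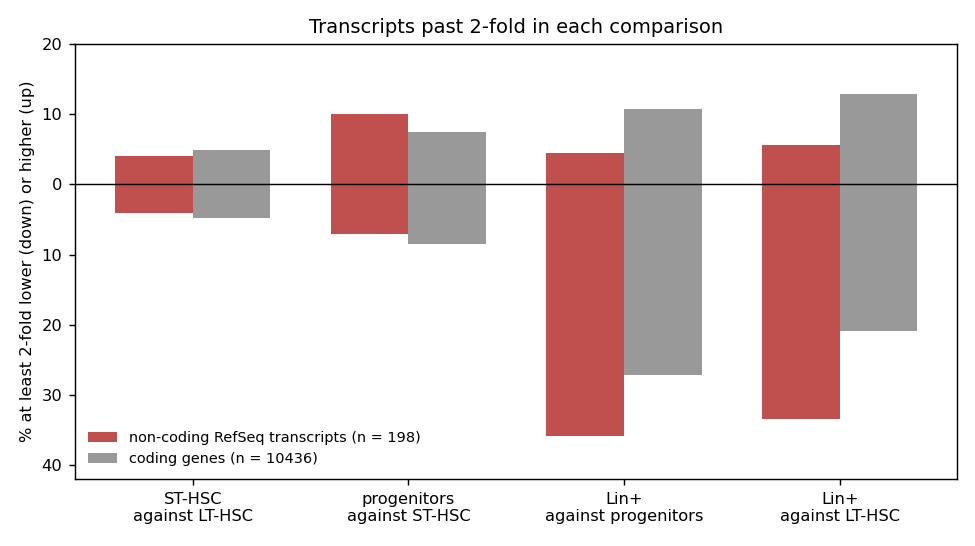
Share of transcripts at least 2-fold higher (bars upward) or lower (bars downward) in each comparison, in percent, for the 198 non-coding members (red) and 10436 coding genes detected in every fraction (grey). The downward bars of members exceed those of coding genes in both comparisons of Lin+ cells, 71 and 66 members.

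Across the 4 fractions, the range of a member (highest minus lowest level) had a median of 1.32, where that of coding genes was 1.17. It reached 4-fold for 42 members (21.2%, background 18.4%) and stayed under 1.5-fold for 23 (11.6%, background 13.5%). LT-HSC held the highest level of 55 members (27.8%, beside 21.5% of coding genes), ST-HSC of 25 (12.6%, beside 15.9%), progenitors of 91 (46.0%, beside 40.7%) and Lin+ cells of 27 (13.6%, beside 21.9%). Lin+ cells held the lowest level of 121 (61.1%, beside 47.6%). Levels stepped down through all 4 fractions for 27 members (13.6%, 9.61% of coding genes) and up for 3 (1.52%, 6.58% of coding genes). Over the other settings, 23 to 38 members stepped down and 3 to 8 up, and the number highest in progenitors moved between 37 and 91, the lowest with spike-in controls.

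**Figure D2:**
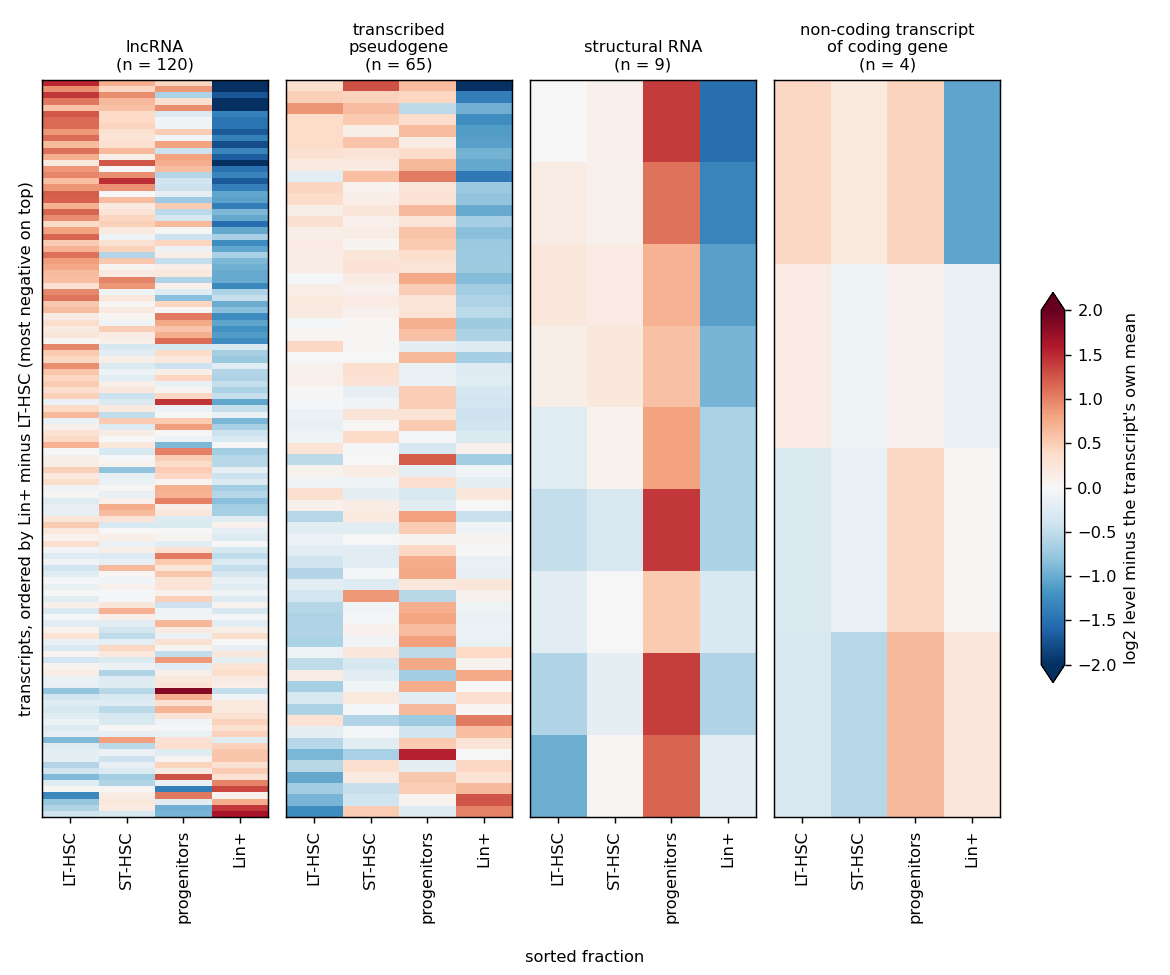
Log2 level of each of the 198 members in each fraction minus its own mean over the 4 fractions, coloured blue (below) to red (above), in panels by annotated kind and ordered within a panel by the difference of Lin+ from LT-HSC. Structural RNAs are red in progenitors, and 37 of 65 pseudogenes are highest there. The blue of Lin+ cells in the upper part of the lncRNA panel follows from the ordering.

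The 11 listed snoRNA host genes were lower in Lin+ cells than in progenitors, where 27.2% of coding genes were at least 2-fold lower. At that step 11 of 11 lay at least 2-fold lower, with a median difference of -1.86 and a spread of -2.47 to -1.06. Over the other scalings and corrections, 8 to 11 stayed past 2-fold and the median lay between -1.92 and -1.25. Against LT-HSC, 8 of 11 were lower in Lin+ cells (background 20.8%), with a median of -1.36. Lin+ was the lowest fraction of all 11 (of 10 with spike-in controls). In progenitors against ST-HSC 3 were higher and 0 lower (background 7.45% and 8.55%), with a median of 0.83 that was 0.21 or more in every setting. In ST-HSC against LT-HSC 0 of 11 differed by 2-fold (background 9.69%), and the median of -0.17 turned positive with spike-in controls.

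Snhg3, whose introns hold 2 annotated snoRNA genes, had levels of 4.59 (LT-HSC), 4.42 (ST-HSC), 6.13 (progenitors) and 3.66 (Lin+ cells). Progenitors stood above the other fractions, by 1.71 ± 0.20 over ST-HSC, and Lin+ cells lay 5.55-fold below them. 1110038B12Rik, one of the hosts with the searched motif, had 5.36, 5.42, 6.43 and 4.07 in the order LT-HSC, ST-HSC, progenitors and Lin+ cells. Snhg16 had 4.67, 4.55, 5.54 and 3.24 in that order. Both had a single high fraction, progenitors, and Lin+ cells as the lowest, at -2.36 ± 0.20 and -2.30 ± 0.20 from progenitors. Snhg6 had 6.09, 6.01, 6.59 and 4.73.

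The remaining hosts did not all peak in progenitors. Snhg7, the other host with the searched motif at its start, had 2.99 (LT-HSC), 2.58 (ST-HSC), 2.25 (progenitors) and -0.10 (Lin+ cells). It was highest in LT-HSC and lower at each step, and its difference of Lin+ from LT-HSC was -3.09 ± 0.21, or 8.53-fold. Dancr, a host that is also studied as a lncRNA of undifferentiated cells, had 2.57, 1.71, 2.32 and 0.21. It was lowest in Lin+ cells (-2.36 ± 0.21 from LT-HSC) and showed no 2-fold step between the stem cell fractions. Snhg1, which holds 8 annotated snoRNA genes, Snhg12, Snhg17 and Snhg10 peaked in progenitors, and 2410006H16Rik in LT-HSC, where for Snhg10 and 2410006H16Rik these 2 fractions lay within the spot error. Their differences of Lin+ from progenitors were -1.84, -1.82, -1.55, -1.06 and -1.42. These 5 hosts lie outside the rule for named genes and were added because a sequence of theirs is shown or to complete the list.

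The annotation offers a check on the host list that does not use the name. An annotated snoRNA gene lay within 12 members, of which 10 are on the host list, and 10 of the 12 were lower in Lin+ cells against progenitors. The other 2, 4833422C13Rik and 9330159M07Rik, each with 1 nested snoRNA, differed by 0.79 and 0.73. 9330159M07Rik is also known as mU50hg-a, so the list left out an annotated host. It had 0.95 (LT-HSC), 1.11 (ST-HSC), 0.40 (progenitors) and 1.13 (Lin+ cells), lowest in progenitors and highest in Lin+ cells. Snhg10 held no annotated snoRNA gene and 1 microRNA gene. The probes read the host RNA, so the snoRNAs themselves were not measured by them.

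**Figure D3:**
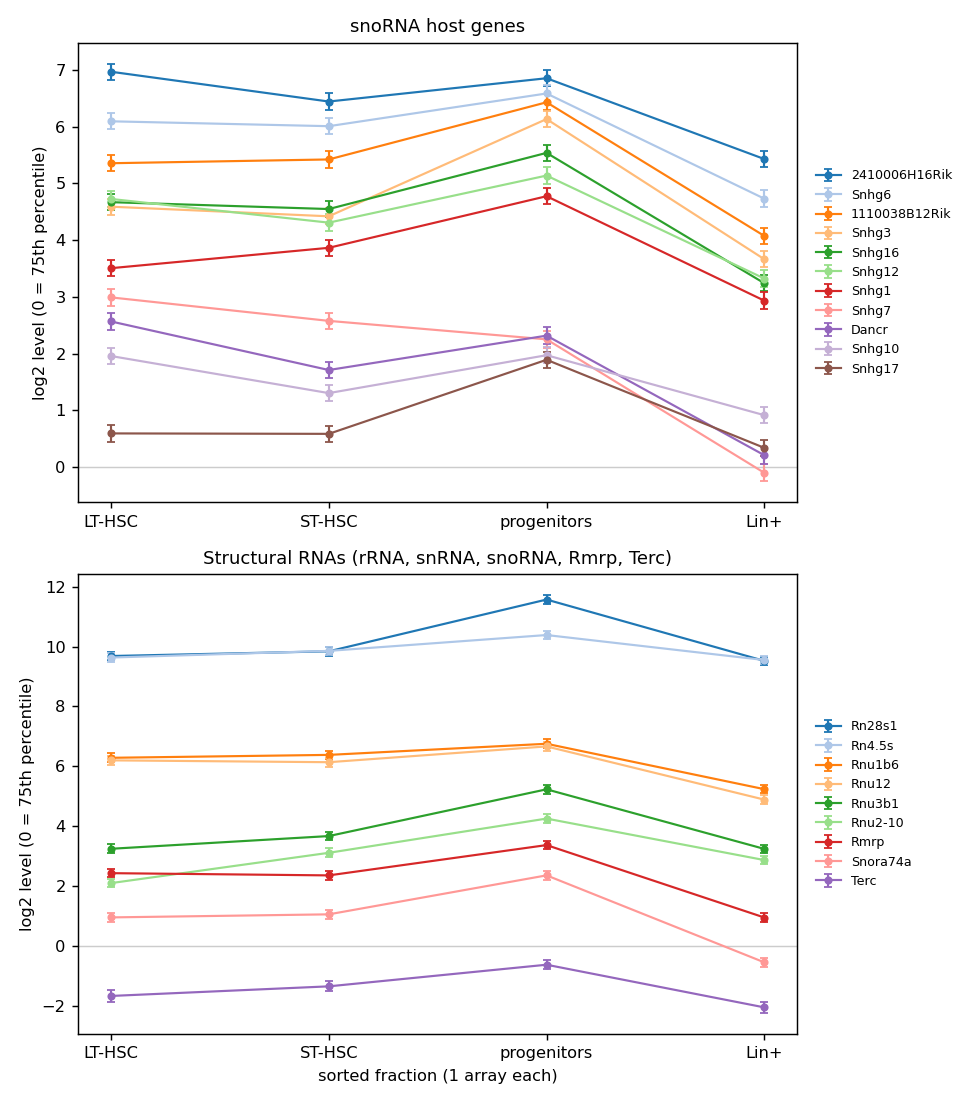
Log2 level (0 is the array's 75th percentile) in the 4 fractions for the 11 snoRNA host genes (upper panel) and the 9 structural RNAs (lower panel), with 1 array per fraction and bars for the spot error. Each of the 11 listed hosts lies lowest in Lin+ cells, and every structural RNA lies highest in progenitors.

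Most genes for proteins of snoRNA particles and of their assembly were also lower in Lin+ cells than in progenitors. The background of that comparison was 27.2% lower and 10.8% higher. Of 10 genes for the proteins and assembly factors of box C/D snoRNPs, the particles that methylate RNA, 9 were past 2-fold on the lower side in Lin+ cells against progenitors and 1, the assembly factor gene Nufip1, was higher at 1.18, with a median of -1.58. Fbl, which encodes the methyltransferase fibrillarin, differed by -2.22 and Nop56 by -2.28. Of 10 genes for proteins, assembly factors and partners of box H/ACA snoRNPs, which make pseudouridine, 8 were lower and 0 higher, with a median of -2.02. Gar1 differed by -2.51 and Nhp2 by -2.26. Of 20 genes whose mRNAs have terminal pyrimidine tracts, most of them for translation, 13 were lower and 0 higher, with a median of -1.13. Over the settings this median came no nearer to 0 than -0.37. Those of the box C/D and box H/ACA lists came no nearer than -0.97 and -1.42. With spike-in controls the coding median of this comparison was 0.17 in place of -0.44, and fewer genes of each list are 2-fold lower. Among the 20, Eef1g, a subunit of elongation factor 1, differed by -1.68.

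RNA surveillance genes were split, in Lin+ cells against progenitors at shares close to the background (10.8% of coding genes higher, 27.2% lower). Of 15 genes of nonsense-mediated decay, a pathway that degrades many spliced host RNAs, 2 were higher and 4 lower in Lin+ cells against progenitors. In progenitors against ST-HSC 3 of the 15 were lower and 0 higher, with a background of 8.55% lower and 7.45% higher. Upf2 differed by -1.87 in progenitors from ST-HSC and by 1.67 in Lin+ cells from progenitors, and Smg1, the kinase of the pathway, by -1.46 and 1.11. The median of the list changed sign between scalings for both comparisons, from -0.53 to 0.14 for Lin+ cells against progenitors and from -0.40 to 0.22 for progenitors against ST-HSC.

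Each of the 9 structural RNAs was highest in progenitors, where 40.7% of coding genes also had their highest level. In progenitors against ST-HSC 5 were higher and 0 lower (background 7.45% and 8.55%), with a median difference of 1.01. At the step to Lin+ cells from progenitors 8 were lower and 0 higher (background 27.2% and 10.8%), with a median of -1.78. The sign of both medians held in every setting (0.39 to 1.01 and -1.84 to -1.17), while the number highest in progenitors was 6 with spike-in controls and 6 after quantile normalization. Most of these RNAs carry no poly(A) tail, and the primer used in amplification is not given in the sources used here. How far their signal follows their amount in the cells was not tested.

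Among RNAs of ribosome production, Rn28s1, the large-subunit ribosomal RNA, had 9.68 (LT-HSC), 9.84 (ST-HSC), 11.57 (progenitors) and 9.52 (Lin+ cells). Progenitors alone stood apart, 3.31-fold above ST-HSC. Rnu3b1, the U3 RNA that takes part in cutting the ribosomal precursor, had 3.25, 3.67, 5.23 and 3.24 in the same order. It too was high in progenitors only, by 1.56 ± 0.20 over ST-HSC, with LT-HSC and Lin+ cells level. Rmrp, the RNA of the RNase MRP enzyme, had 2.43, 2.36, 3.37 and 0.95, and Snora74a, an H/ACA snoRNA, had 0.95, 1.06, 2.36 and -0.55. For both, Lin+ cells were also below the stem cells, by 2.79-fold and 2.83-fold from LT-HSC. Of 9 genes for the proteins of RNase MRP and its relative RNase P, 6 were lower and 0 higher in Lin+ cells against progenitors. The background was 27.2% lower and 10.8% higher. The median of the 9 was -1.46, between -1.53 and -0.86 over the settings, and fewer of them are 2-fold lower with spike-in controls. Rpp38 and Rpp40, subunits of both enzymes, differed by -2.16 and -2.08.

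The spliceosomal RNAs were less uniform. Rnu1b6, a U1 RNA that recognises 5′ splice sites, had 6.28 (LT-HSC), 6.38 (ST-HSC), 6.75 (progenitors) and 5.24 (Lin+ cells). Rnu12, of the minor spliceosome, had 6.20, 6.14, 6.66 and 4.89. Both were within 1.5-fold across the 3 immature fractions and lower in Lin+ cells, by -1.52 ± 0.20 and -1.78 ± 0.20 from progenitors. Rnu2-10, a U2 RNA, had 2.10, 3.11, 4.25 and 2.87, and was the only structural RNA that was 2-fold higher in ST-HSC than in LT-HSC (1.01 ± 0.20). Terc, the template RNA of telomerase, had -1.67, -1.35, -0.63 and -2.05, with Lin+ cells 2.68-fold below progenitors. Rn4.5s, a short RNA of rodents, was the least variable, with 9.63, 9.85, 10.38 and 9.55.

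Malat1 differed in the opposite direction at the step to Lin+ cells. Malat1, a lncRNA of nuclear speckles, had 0.48 (LT-HSC), 1.26 (ST-HSC), 0.13 (progenitors) and 2.50 (Lin+ cells). It was 5.18-fold higher in Lin+ cells than in progenitors and 2.19-fold lower in progenitors than in ST-HSC, so its high fraction was Lin+ and its low one progenitors. Neat1, the scaffold of paraspeckles, had 2.08, 1.33, 2.04 and 2.29 and stayed within 2-fold, lowest in ST-HSC. Of 15 speckle genes 1 was higher and 3 were lower in Lin+ cells against progenitors, with a median of -0.53 that turned positive with another scaling. Clk1, a kinase of splicing factors, was the higher one at 1.68. Of 14 paraspeckle genes 0 were higher and 4 lower, and Dazap1 differed by -1.22. For both lists the background was 10.8% higher and 27.2% lower.

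The 3 lncRNAs of the X-inactivation list reached 2-fold by their brightest probes in 1 comparison, for Ftx. Xist, which coats the inactive X chromosome in female cells, had 1.36 (LT-HSC), 2.27 (ST-HSC), 1.64 (progenitors) and 0.83 (Lin+ cells). By this brighter of 2 probes no compared pair differed by 2-fold. The probes disagreed in sign for progenitors against ST-HSC, at -0.63 and 0.59, and gave -0.80 and -1.52 for Lin+ cells against progenitors. Ftx, a neighbour of Xist and regulator of it in mouse, had -1.04, -0.94, -0.26 and -1.65, with Lin+ cells 2.62-fold below progenitors. 5530601H04Rik, an X-linked locus on the same list, had 1.12, 0.90, 0.61 and 0.25 and was lower at each step. Of 17 protein genes of X inactivation, 1 was higher and 0 lower in ST-HSC against LT-HSC (background 4.9% and 4.79%). At the step to Lin+ cells from progenitors 4 were higher and 1 lower (background 10.8% and 27.2%). Smchd1, which maintains silencing of the inactive X, differed by 1.16 in ST-HSC from LT-HSC, by -1.20 in progenitors from ST-HSC and by 1.03 in Lin+ cells from progenitors.

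Of the imprinted members, Peg13 had one of the widest ranges and Airn one of the narrower. Peg13, expressed from the paternal allele and lying within Trappc9, had 6.33 (LT-HSC), 5.84 (ST-HSC), 4.29 (progenitors) and 3.20 (Lin+ cells). Its level was lower at each step, with progenitors 2.94-fold below ST-HSC and Lin+ cells 8.74-fold below LT-HSC. Kcnq1ot1, which silences genes of its own domain, had -2.14, -0.43, -0.97 and -1.50. LT-HSC was its low fraction, with ST-HSC 1.70 ± 0.30 above it, at levels close to the detection limit. Airn, the antisense RNA that silences Igf2r, had -0.94, -1.39, -0.85 and -0.90, within 1.5-fold throughout.

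Lin+ cells were also the high fraction of 3 other named lncRNAs. Mirt1 had -0.56 (LT-HSC), -0.49 (ST-HSC), -1.1 (progenitors) and 1.47 (Lin+ cells), 5.96-fold above progenitors. Dubr, known in mouse for a role in muscle cell differentiation, had -0.98, -0.97, -2.37 and 0.33. Its difference of Lin+ cells from progenitors was the largest positive one of any member (2.71 ± 0.30), with progenitors near the detection limit. Lockd, read from a region downstream of the cell cycle inhibitor gene Cdkn1b, had 3.77, 4.76, 4.32 and 5.27. For Mirt1 and Dubr, Lin+ cells stood alone above 3 fractions, whereas Lockd was lowest in LT-HSC and was 2.82-fold higher in Lin+ cells than there.

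Pvt1, the neighbour of Myc, was high in progenitors, while Norad and Tug1 stayed within 2-fold by their brightest probes. Pvt1 had -0.99 (LT-HSC), -0.76 (ST-HSC), 1.64 (progenitors) and -0.68 (Lin+ cells). Its difference of progenitors from ST-HSC was the largest of any member at 2.40 ± 0.21, but its other probe gave 1.30, and for Lin+ cells against progenitors the probes gave -2.33 and -0.45. Norad, which binds Pumilio proteins, had 3.53, 3.41, 3.26 and 2.55, and 0 of its compared pairs reached 2-fold with the brightest probe. One of its 4 probes gave -1.23 in Lin+ cells from progenitors. Tug1 had 0.61, 0.73, 0.10 and 0.57, where its 3 probes ranged between 0.48 and 1.42 in Lin+ cells from progenitors.

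**Figure D4:**
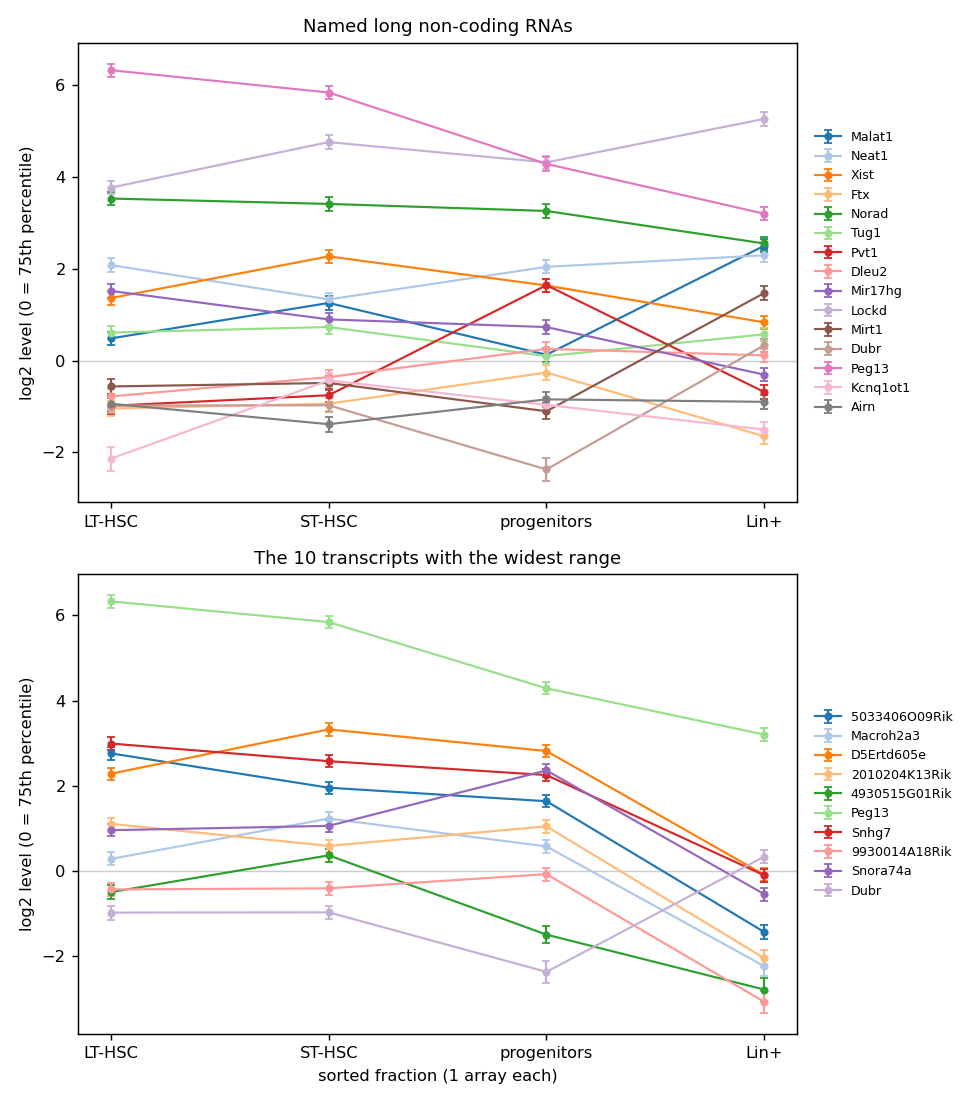
Log2 level (0 is the array's 75th percentile) in the 4 fractions for 15 named lncRNAs (upper panel) and the 10 members with the widest range (lower panel), with 1 array per fraction and bars for the spot error. Malat1, Mirt1 and Dubr are highest in Lin+ cells, Pvt1 in progenitors, and 9 of the 10 widest members are lowest in Lin+ cells.

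The microRNA hosts carried some of the most studied microRNAs of blood cells, and 5 of their mature products are shown for their seeds, with other products of the same hosts left out. The sequences are from RefSeq, assembly GRCm38.p6, and capitals mark the seed, bases 2 to 8.
Mir17hg, mmu-miR-92a-3p, chr14:115044476-115044496, plus strand: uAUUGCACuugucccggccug
Dleu2, mmu-miR-15a-5p, chr14:61632075-61632096, minus strand: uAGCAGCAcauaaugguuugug
Dleu2, mmu-miR-16-5p, chr14:61631936-61631957, minus strand: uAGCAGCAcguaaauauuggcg
Ftx, mmu-miR-421-5p, chrX:103572966-103572986, minus strand: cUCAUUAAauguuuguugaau
Ftx, mmu-miR-374b-5p, chrX:103573112-103573133, minus strand: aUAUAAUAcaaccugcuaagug
The 2 products of Dleu2 shown share 1 seed, and the others shown differ from it and from each other. Mir17hg, the host of the oncogenic miR-17 cluster, had 1.52 (LT-HSC), 0.90 (ST-HSC), 0.73 (progenitors) and -0.31 (Lin+ cells). It was lower at each step, 3.54-fold in Lin+ cells against LT-HSC. Dleu2, host of the tumour suppressor miRNAs of the miR-15 family, had -0.78, -0.36, 0.25 and 0.11. Its levels in progenitors and Lin+ cells lay above both stem cell fractions, by under 2-fold in each compared pair. Mature microRNAs were not measured by these probes. Of 16 genes for microRNA processing, 2 were higher and 5 lower in Lin+ cells against progenitors, with Tnrc6b at 1.67 and Dis3l2 at -1.62. These shares were close to the background of 10.8% higher and 27.2% lower.

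Most members are known by clone or locus names, among them the one with the widest range. The 125 such members include 2 of the listed snoRNA hosts and 1 of the X-inactivation list. In Lin+ cells against progenitors 4 of the 125 were higher and 42 lower, with a median of -0.83. This was close to the shares of all members, 4.55% higher and 35.9% lower. The lncRNA 5033406O09Rik had 2.76 (LT-HSC), 1.95 (ST-HSC), 1.64 (progenitors) and -1.44 (Lin+ cells). It was lower at each step and 18.3-fold lower in Lin+ cells than in LT-HSC. D5Ertd605e had 2.28, 3.32, 2.81 and -0.09, and 2010204K13Rik had 1.1, 0.59, 1.04 and -2.05. In both, Lin+ cells lay apart from the 3 immature fractions, 7.49-fold and 8.54-fold below progenitors, and D5Ertd605e was also past 2-fold higher in ST-HSC than in LT-HSC. 9930014A18Rik had -0.44, -0.41, -0.08 and -3.08 by its brighter probe, with Lin+ cells near the detection limit. Its other probe gave 0.11 for Lin+ cells against progenitors where the brighter gave -3.0.

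Other clone-named lncRNAs differed among the immature fractions. 4930515G01Rik had -0.50 (LT-HSC), 0.36 (ST-HSC), -1.50 (progenitors) and -2.79 (Lin+ cells), the lowest difference of progenitors from ST-HSC (-1.86 ± 0.25). AA388235 had 0.35, 0.30, -1.21 and -1.95, and AI504432 -0.33, 0.06, -1.54 and -1.94. These 3 were high in the stem cell fractions and low in progenitors and Lin+ cells. 1700001L05Rik showed the reverse, with -0.92, -0.71, 1.22 and 0.24. 2810408I11Rik had 0.55, 2.0, 2.91 and 1.94, so LT-HSC was its low fraction, with ST-HSC 2.73-fold above it. The lncRNAs 4833418N02Rik, with 0.82, -0.46, -0.49 and -0.45, and 4831440E17Rik, with 0.78, -0.47, -0.80 and -1.04, were instead high in LT-HSC alone. Their differences of ST-HSC from LT-HSC were -1.29 ± 0.21 and -1.24 ± 0.21. 1300002E11Rik was low in ST-HSC, with 0.47, -0.83, 0.49 and -0.18, and 5031434O11Rik, near the detection limit, had the most negative difference of ST-HSC from LT-HSC at -1.68 ± 0.34. Lower at each step were 0610009L18Rik, with 4.22, 3.54, 2.99 and 1.63, and 2700046G09Rik and Gm11696, whose differences of Lin+ cells from LT-HSC were -2.59 and -2.60.

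The transcribed pseudogenes had few wide ranges. A range of 4-fold was reached by 5 of 65 (7.69%), where 33 of 120 lncRNA genes reached it (27.5%). Their median differences were 0.14 in ST-HSC against LT-HSC, 0.40 in progenitors against ST-HSC, -0.83 in Lin+ cells against progenitors and -0.19 in Lin+ cells against LT-HSC, and the second and the last changed sign between scalings. Those of lncRNA genes were -0.18, 0.11, -0.74 and -0.70, and there the first and second changed sign. Against LT-HSC, Lin+ cells had 4 pseudogenes higher and 12 lower, and 7 lncRNA genes higher and 49 lower. The background was 12.9% higher and 20.8% lower, and the share of pseudogenes that were lower was close to it.

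Macroh2a3, a pseudogene of the macroH2A histone family, had 0.28 (LT-HSC), 1.23 (ST-HSC), 0.57 (progenitors) and -2.24 (Lin+ cells), 7.02-fold below progenitors. Gm8096 had 3.20, 4.03, 4.47 and 2.0, with Lin+ cells again lowest. Gm5088 had -0.64, -0.38, 1.83 and 0.28, a high value in progenitors only (2.21 ± 0.21 from ST-HSC), as did Gm15760 with -2.16, -1.64, -0.43 and -2.33. 2700099C18Rik had -2.30, -0.55, -1.32 and -0.06, the largest difference of ST-HSC from LT-HSC of any member (1.75 ± 0.32). Its LT-HSC level was near the detection limit. Znf41-ps, at -1.92, -0.67, -2.10 and -1.46, was high in ST-HSC. 5730416F02Rik, on the X chromosome, had 1.69, 0.81, 0.68 and 2.45, with Lin+ cells 3.40-fold above progenitors. The brightest pseudogene probes were those of Gm8580, Gm10653, Gm6548 and Gm12070, with ranges of 1.34, 1.42, 1.08 and 1.37.

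Pseudogenes named for a parent gene mostly had the sign of its difference. Of 11 such members, 10 had a parent detected in every fraction, and this pairing was added with values known. Pseudogene and parent had the same sign in 9 of 10 pairs for ST-HSC against LT-HSC and 7 for progenitors against ST-HSC. The number was 9 for Lin+ cells against progenitors and 10 for Lin+ cells against LT-HSC. Unrelated pairs can share a sign too. In Lin+ cells against progenitors 157 of 198 members and 6879 of 10436 coding genes lay below 0. Pearson's r over the 10 pairs was 0.77, 0.54, 0.86 and 0.86 in that order, as a description of points that share the same arrays, and 2 of the pairs share the parent Pisd. Whether these probes tell pseudogene and parent apart was not examined. Tubb2a-ps2, a copy of a beta-tubulin gene, was the widest, with -0.32 (LT-HSC), 0.21 (ST-HSC), 0.68 (progenitors) and 1.87 (Lin+ cells), higher at each step. It differed by 2.19 in Lin+ cells from LT-HSC, and its parent by 2.73. Rps15a-ps6, chosen after its values were seen, was the pair of unlike sign, at 0.42 in Lin+ cells from progenitors where its parent differed by -1.23.

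Of 10 opposite-strand transcripts, 9 could be assigned a partner gene by name, all but G6bos, and 6 of these partners were detected in every fraction. Same signs were found in 1, 3, 5 and 3 of 6 pairs in the same order of comparisons. The 5 belong to Lin+ cells against progenitors, where most members and coding genes lay below 0. Foxd2os had 1.11 (LT-HSC), 0.60 (ST-HSC), -0.17 (progenitors) and -0.84 (Lin+ cells), lower at each step, and differed by -1.96 in Lin+ cells from LT-HSC where Foxd2 differed by -2.95. Map2k3os had -0.49, -0.17, -0.09 and -1.87 and differed by -1.39 where Map2k3, a kinase of the p38 pathway, differed by 1.18. Rab10os had -1.30, -1.59, -0.71 and -0.59, and Zbtb11os1 had 1.43, 1.39, 1.69 and 0.75. Their differences of Lin+ cells from LT-HSC were 0.71 and -0.67, of the opposite sign to those of Rab10 (-0.41) and Zbtb11 (0.63). Stk35os1 and Fbxl12os stayed within 2-fold in each compared pair, at -0.71 and 0.66 in Lin+ cells from LT-HSC. Lppos had 0.01, -0.49, -1.59 and -0.70, with progenitors 2.15-fold below ST-HSC. G6bos had -2.28, -2.50, -1.29 and -1.76, with progenitors 2.33-fold above ST-HSC. The strand that each probe reads was not checked.

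**Figure D5:**
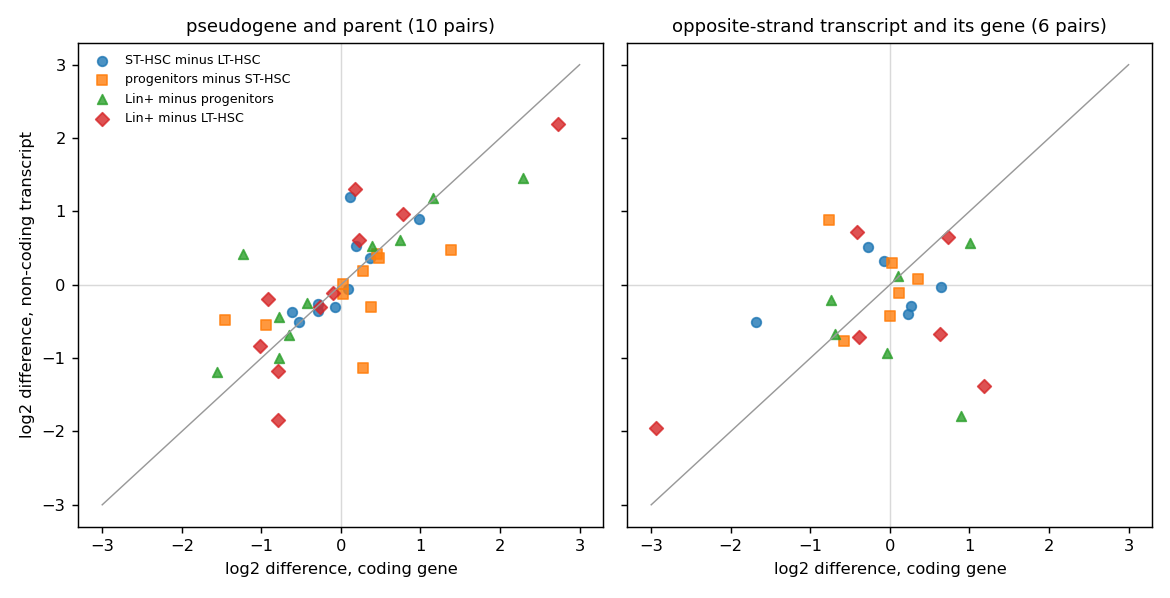
Log2 difference of a non-coding transcript (vertical) against that of its coding gene (horizontal) in the 4 comparisons, for 10 pairs of pseudogene and parent (left) and 6 pairs of opposite-strand transcript and gene (right), with the line of equality in grey. Signs match in 9, 7, 9 and 10 of the 10 pseudogene pairs and in 1, 3, 5 and 3 of the 6 opposite-strand pairs.

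For 4 members the annotation gives a protein-coding gene, and a coding transcript of the same symbol was also measured. The non-coding transcript of Bmp1, a secreted protease, stayed between -0.69 and -0.37 in all fractions, while its coding probe differed by -2.30 in Lin+ cells from progenitors. That of Zfp672 had 2.45 (LT-HSC), 2.20 (ST-HSC), 3.42 (progenitors) and 2.99 (Lin+ cells), and differed by 1.22 ± 0.20 in progenitors from ST-HSC where the coding probe was level. For Prmt6, an arginine methyltransferase, both transcripts differed alike in Lin+ cells from progenitors, by -1.49 and -1.33. Tmem80 had opposite signs in Lin+ cells from LT-HSC, 0.30 for the non-coding and -1.47 for the coding probe.

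The members with the narrowest range were Olfr1372-ps1, Dlx6os2, Gm15348, Bmp1, 2610005L07Rik and Gm6524. Olfr1372-ps1 lay between -1.99 and -1.82 and Dlx6os2 between -1.26 and -1.09, near the lower end of detection. Gm15348 lay between 2.09 and 2.30 in all 4 fractions, well above it.

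The length of a gene's span moved with its difference in the comparisons of progenitors against ST-HSC and Lin+ cells against progenitors. In the 40 members with the shortest spans, 150 to 1278 bases, progenitors differed from ST-HSC by a median of 0.53, against -0.05 in the 40 with spans of 14819 bases or more. For Lin+ cells against progenitors these medians were -1.24 and -0.29. In the shortest and longest of 5 equal groups of coding genes they were 0.44 and -0.15 for progenitors against ST-HSC, and -0.67 and -0.10 for Lin+ cells against progenitors. In ST-HSC against LT-HSC the medians of the 5 groups of members lay between -0.18 and 0.07 with no order, and in Lin+ cells against LT-HSC they were -0.43, -1.13, -0.65, -0.41 and 0.11, shortest first. The part of gene length in the results above was not tested.

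At the edge of the detection rule, 3110070M22Rik, Gm16287, 5031434O11Rik and Gm10516 had the lowest mean levels of the members, between -2.60 and -2.52. The brightest symbols just outside it were AI854703, with 0.76 in LT-HSC and not detected in Lin+ cells, Speer1, with 1.08 in Lin+ cells and not detected in progenitors, the snoRNA Snora47, not detected in Lin+ cells, and 1600010M07Rik, not detected in LT-HSC. A wide difference can thus remove a transcript from the members. Among non-coding symbols detected in 1 fraction only, LT-HSC held 6, ST-HSC 14, progenitors 8 and Lin+ cells 29.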

How the data were processed

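Total RNA of each fraction was amplified and labelled with Cy3 by the Quick Amp kit with spike-in controls and hybridised to 1 Agilent array, all 4 on 1 slide, per the labels' protocols and the file headers. Each deposited scanner file gives a linear intensity for every spot, background-subtracted by Feature Extraction (version 10.7.1.1, per the submitters' processing notes) and not scaled between arrays. The authors also deposited a value table whose entries are each a linear ratio: processed signal over an array-wide constant (191, 217, 137 and 230). This held within 1% for 100% of the 55246 probes with a single spot, with column medians of 0.0619, 0.0630, 0.0704 and 0.0738, so its scale, centring and direction are known, and it was used as an alternative.

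Control spots and outlier spots were left out, spots of a probe were averaged on the log2 scale, and each array's 75th percentile was subtracted. Of 55681 probes 3 were dropped, and 0 spots were saturated. Accessions were named through the RefSeq table of GRCm38.p6 without versions. The array design uses build mm9, so no probe coordinates are given. Of 886 non-coding probes 813 had a symbol. Of the 198 members, 24 symbols had more than 1 passing probe.

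Differences were counted at 2-fold, with no test. The counting was tested on simulated data with known changes. Alternatives were 5 other scalings, normexp correction (limma 3.58.1 in R 4.3.3, offset 50, on spot medians because the files give no spot means), the value table, the mean of probes, every spot above background, detection in at least 1 fraction with bounds, and 1.5-fold. Python 3.11.15 with numpy 2.4.6 and pandas 2.3.3 was used.

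The members and gene lists were chosen with earlier results of these data known. Named members were all of a role group of 10 or fewer, otherwise its 6 largest differences, the 6 brightest, the 10 widest and 6 narrowest ranges, the 4 largest and 4 smallest differences of each comparison, 4 at each side of the detection rule, and up to 4 of each partner list. Members added beyond this are marked or belong to a pair. Partner genes are printed only in part.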

Additional observations from a re-analysis of the deposited data

How the results depend on the processing

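No member past 2-fold changed direction in any alternative run, but most runs could not have turned one. Scalings other than quantile normalization shift all members of a comparison alike, here by under 2-fold. The 1.5-fold, bounds and spot rules leave members' values unchanged. Only quantile normalization, normexp and the mean of probes could reverse a member. The deposited value table, the mean of probes, quantile normalization and the stricter spot rule kept the counts past 2-fold each way within 1.5 times. The same held for the counts of wide and narrow ranges. With quantile normalization, members higher at every step numbered 8 in place of 3, and snoRNA hosts highest in LT-HSC 6 in place of 3. Other counts moved. For ST-HSC against LT-HSC, the 8 higher members became 5 with the detected-probe percentile, 5 with the coding median at 0, 20 with spike-in controls, 5 after normexp, 13 with detection in at least 1 fraction and bounds, and 23 at 1.5-fold, and the 8 lower ones became 1 with spike-in controls, 0 after normexp, 23 with bounds and 27 at 1.5-fold. For progenitors against ST-HSC, the 20 higher became 10 with the detected-probe percentile, 13 with the median of all probes, 12 with the coding median at 0, 5 with spike-in controls, 9 after normexp, 39 with bounds and 56 at 1.5-fold, and the 14 lower became 42 with spike-in controls, 3 after normexp and 26 at 1.5-fold. For Lin+ cells against progenitors, the 9 higher became 16, 18, 25, 32 and 17 with the detected-probe percentile, the coding median at 0, spike-in controls, bounds and 1.5-fold, and the 71 lower became 46, 41, 34 and 116 with the detected-probe percentile, the coding median at 0, spike-in controls and 1.5-fold. For Lin+ cells against LT-HSC, the 11 higher became 22 with spike-in controls, 34 with bounds and 28 at 1.5-fold. Ranges of 4-fold or more were 15 after normexp and 79 with bounds in place of 42, and ranges under 1.5-fold were 40 and 35 in place of 23. A lower fold and the wider rule, which takes in 320 symbols, raise counts by construction, and the cause of the other moves was not tested. Scaling shifted the median of coding genes: with spike-in controls it was 0.36 in ST-HSC against LT-HSC, -0.42 in progenitors against ST-HSC and 0.17 in Lin+ cells against progenitors, where the percentile gave 0.05, 0.20 and -0.44.

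No paired analysis was possible because each fraction has 1 array and every array carries the same replicate number, and for the same reason no replicate could be left out. Spot error is the only error given, probe specificity was not examined, and members near the detection limit have the largest errors, up to 0.41 for a difference.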

Other observations

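The 25 non-coding accessions without a symbol were detected in every fraction and lie outside the members. In Lin+ cells against progenitors 2 were at least 2-fold higher and 10 lower (background 10.8% and 27.2%), with a median difference of -0.75. In Lin+ cells against LT-HSC 4 were higher and 6 lower (background 12.9% and 20.8%), with a median of -0.20. In progenitors against ST-HSC 1 was higher and 1 lower (background 7.45% and 8.55%). In ST-HSC against LT-HSC 1 was higher and 0 lower (background 4.9% and 4.79%).

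Of 9 detected genes of the 7SK particle and its partner P-TEFb, an RNA-protein switch of transcription elongation, 0 reached 2-fold in any comparison. The background was 9.69% in ST-HSC against LT-HSC, 16% in progenitors against ST-HSC, 38% in Lin+ cells against progenitors and 33.7% against LT-HSC. The medians of the 9 genes, in that order, were -0.03, 0.23, -0.43 and -0.18, and changed sign between scalings.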
